A study of Mus musculus with 10 samples.

Results

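Cholesterol handling was read from RNA-seq of *db/db* livers through 30 genes of cholesterol synthesis, uptake and efflux. They were chosen by name for their known roles, with earlier results of these data known, and all 30 were found among the 15126 genes measured. By role they are 7 enzymes of the mevalonate part of synthesis, 11 enzymes of the sterol part, 4 regulators of the transcription factor SREBP-2, 3 genes of uptake and transport, 2 of esterification and 3 of efflux. *db/db* mice lack a working leptin receptor in every tissue and are obese and diabetic. The livers described are those of the AAV8-Control group (n = 5), from *db/db* mice of 10 weeks, and the study used males. AAV8, a serotype of adeno-associated virus that reaches the liver, was given by tail vein 5 weeks before the livers were taken, and here it encoded eGFP, a fluorescent protein. The promoter of the vector and the feeding state and time of day at collection are not given in the sources used here. Sample labels name both liver and cultured primary hepatocytes infected with adenovirus, whereas the paper describes livers after AAV8 given by tail vein. The samples were treated as liver, and the libraries held RNA of more cell types than hepatocytes. Of markers fixed for other liver cells, 13 of 14 of Kupffer cells, 10 of 10 of sinusoidal endothelium and 10 of 10 of stellate cells averaged 1 CPM or more.

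Cholesterol is built from acetyl-CoA. The mevalonate part of the pathway makes farnesyl diphosphate, which also feeds other products, and the sterol part joins it into squalene and turns that into cholesterol. When membranes of the endoplasmic reticulum are poor in sterol, the escort protein SCAP carries SREBP-2 to the Golgi, where it is cut and released to switch on nearly every gene of the pathway. INSIG proteins hold SCAP back when sterol is plentiful. The liver also takes cholesterol from lipoproteins, stores it as ester, loads it onto HDL through ABCA1 and sends it to bile through the ABCG5 and ABCG8 pair, whose genes respond to the oxysterol receptor LXR.

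The letters that SREBP-2 and its partners NF-Y and Sp1 are known to bind were searched in RefSeq promoters of GRCm38.p6, each running from 250 bases before to 50 after a start of transcription. Some are printed to show where these letters lie, and no link between them and the levels was tested. An entry was matched for 24 of the 30 genes, with 31 promoters, and not for *Fdft1*, *Fdps*, *Scarb1*, *Soat2*, *Sqle* and *Stard4*. The SREBP core, CACNCCAC or GTGGNGTG on the other strand, was in 3 of the 31 promoters (9.68%), against 6.24% of all 32851 promoters. These 3 belonged to *Acat2*, *Hmgcs1* and *Insig1*. An NF-Y box, CCAAT or ATTGG, was in 21 of 31 (67.7%), against 37.4% of all promoters. A GC box, GGGCGG or CCGCCC, was in 23 of 31 (74.2%), against 35.7%. Among the 18 promoters of synthesis enzymes, 2 held the SREBP core (11.1%), 14 an NF-Y box (77.8%) and 15 a GC box (83.3%). The set of all promoters covers 27025 genes, whether or not the liver expresses them. Promoters of liver-expressed genes alone were not compared, so these shares are not shown to be particular to the pathway. Genes with several listed starts count more than once. The 200 bases before the outermost annotated start are given for 4 genes, written 5′ to 3′ on the gene's own strand. Hmgcs1 (chr13:119690151-119690350, forward strand) and Acat2 (chr17:12960748-12960947, reverse strand) hold an SREBP core. Mvk (chr5:114444069-114444268, forward strand) had the most NF-Y boxes of the 4 windows. Insig2 (chr1:121332590-121332789, reverse strand) belongs to the regulator of the highest level. Capitals mark the SREBP core, NF-Y box and GC box, and no match overlapped another.
Hmgcs1: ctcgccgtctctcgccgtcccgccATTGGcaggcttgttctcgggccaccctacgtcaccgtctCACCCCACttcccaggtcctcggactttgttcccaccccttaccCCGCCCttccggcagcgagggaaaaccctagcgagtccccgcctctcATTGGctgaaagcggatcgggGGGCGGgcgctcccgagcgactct
Acat2: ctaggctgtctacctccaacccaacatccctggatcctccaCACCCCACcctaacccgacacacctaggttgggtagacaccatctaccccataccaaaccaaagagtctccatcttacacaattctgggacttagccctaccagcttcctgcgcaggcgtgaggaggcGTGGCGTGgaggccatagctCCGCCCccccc
Mvk: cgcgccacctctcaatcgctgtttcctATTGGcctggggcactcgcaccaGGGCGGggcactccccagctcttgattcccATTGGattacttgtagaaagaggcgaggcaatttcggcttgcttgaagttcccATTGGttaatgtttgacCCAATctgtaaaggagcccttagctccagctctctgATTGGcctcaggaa
Insig2: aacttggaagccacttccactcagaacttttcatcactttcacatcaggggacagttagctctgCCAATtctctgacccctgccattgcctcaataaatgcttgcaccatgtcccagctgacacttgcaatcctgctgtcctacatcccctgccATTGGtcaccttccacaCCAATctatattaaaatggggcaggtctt
The SREBP core of *Hmgcs1* began 136 bases before the RefSeq start, with NF-Y boxes at 176 and 45 bases and GC boxes at 92 and 24 bases. *Acat2* held its cores 181 and 53 bases before its RefSeq start and no NF-Y box, and the stretch printed for it ends 22 bases before that start. *Mvk* held 5 NF-Y boxes between 173 and 14 bases before its start. In *Insig2* the NF-Y boxes lay 136, 46 and 29 bases before the outermost of its 3 listed starts. A match describes these letters and does not show binding.

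Levels are given in CPM, the gene's reads scaled to all reads counted on genes. The 5 libraries held 19499795 to 35498596 such reads, so that 1 read was 0.0282 to 0.0513 CPM. Replicate 3 had the most reads and replicate 4 the next most (27435041). All 30 cholesterol genes averaged more than 1 CPM, as did 11041 genes in all, and the fewest reads behind any value of the 30 were 86. The spread between livers is given as the coefficient of variation, the SD as a percentage of the mean. Its median was 12.9% over the 30 genes and 10.6% over the 11041. Over the 8442 genes at or above the level of the lowest of the 30 it was 9.04%. The highest liver exceeded the lowest by 1.09-fold for the most even gene, *Stard4*, and by 2.34-fold for the least even, *Pmvk*. In bulk liver RNA, fewer cells of a type and less RNA per cell cannot be told apart.

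Per kilobase of exon, which allows a rough comparison of different genes, the 30 genes ran from 1.5 CPM for *Idi1* to 405 CPM for *Lcat*. The length used joins the exons of all annotated transcripts of a gene and can exceed that of the RNA made. It was 10787 bases for *Lss* and 1342 for *Lcat*, so places in this order depend in part on the length. *Sc5d* (138 CPM per kilobase), *Insig2* (133), *Hmgcs1* (126), *Ebp* (96.0) and *Insig1* (94.9) followed *Lcat*. Taken liver by liver, *Lcat* exceeded each of these in 5 of 5 livers, and *Sc5d* exceeded *Hmgcs1* in 5 of 5. *Insig2* had no fixed place between them, as *Sc5d* exceeded it in 3 of 5 livers and it exceeded *Hmgcs1* in 3 of 5. *Ebp* exceeded *Insig1* in 4 of 5. At the low end *Mylip* (3.14 CPM per kilobase), *Lss* (6.26) and *Mvk* (8.11) stood above *Idi1*. So enzymes of the same pathway lay at both ends of the order. Reads of 50 bases could be shared with other genes for some of the 30, so their levels are less certain. The authors counted only reads placed uniquely and without ambiguity, so leaving out shared reads could make these levels too low. The share of 50-base windows also found in another gene's transcripts was 39.1% for *Acat2*, 26.5% for *Fdft1*, 26.2% for *Fdps*, 25.3% for *Idi1*, 11.6% for *Hmgcs1*, 9.96% for *Scap* and 9.87% for *Tm7sf2*. It was at most 2.77% for the other 23.

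**Figure D1:**
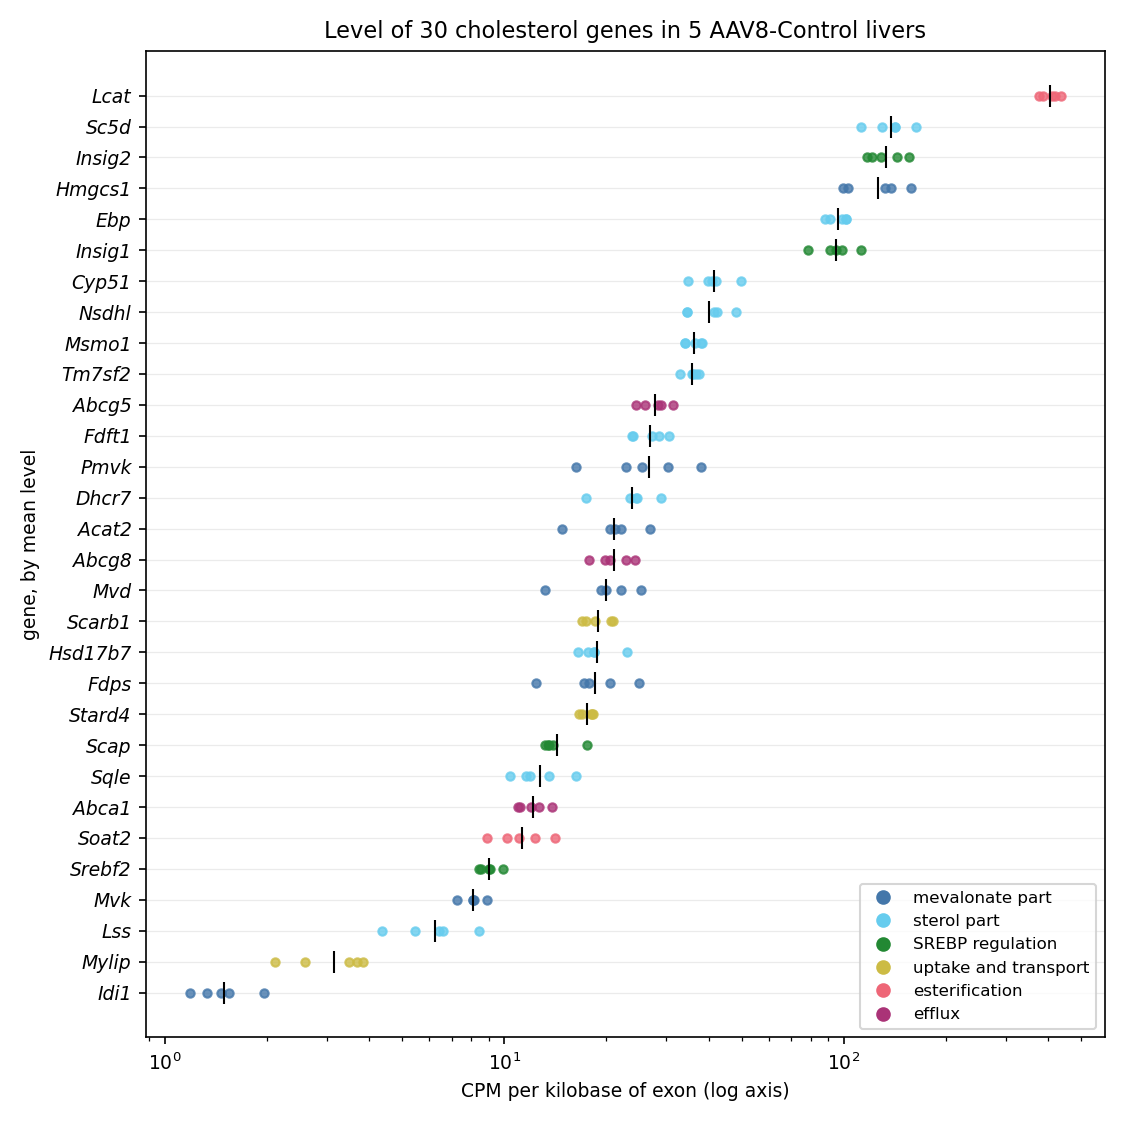
Level of each of the 30 cholesterol genes in CPM per kilobase of exon on a log axis, with 1 point per AAV8-Control liver (n = 5), a black tick for the mean and the role of the gene as colour. *Lcat* stands alone at 405 and *Idi1* at 1.5, and the livers of a gene lie close together beside the range between genes.

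The mevalonate part had a median coefficient of variation of 20.4% over its 7 enzymes. It held 6 of the 11 genes above 15%, a limit chosen after the values were seen. The share of all genes above that limit was not computed, so the count is a description. *Pmvk*, phosphomevalonate kinase, was at 39.2, 52.0, 65.1, 27.8 and 43.6 CPM in AAV8-Control replicates 1 to 5. Replicate 3 was the highest liver and replicate 4 the lowest, and the coefficient of variation of 30.7% was the largest of the 30. *Fdps*, farnesyl diphosphate synthase, which makes the last product of this part, was at 72.4, 85.9, 105, 52.3 and 75.0 CPM, with the same livers at its ends (coefficient of variation 24.7%). *Hmgcs1*, cytosolic HMG-CoA synthase, is the second enzyme of the pathway and a standard readout of SREBP-2. It was at 471, 631, 725, 457 and 608 CPM, so that replicates 1 and 4 lay apart below the other livers. *Mvk*, mevalonate kinase, was the exception at 21.8, 23.8, 21.7, 19.5 and 21.7 CPM, with a coefficient of variation of 7.05%, where counting error alone would give 4.42%. *Acat2*, the cytosolic thiolase that opens the pathway, had a mean of 53.6 ± 10.9 CPM (SD, n = 5). *Mvd*, mevalonate diphosphate decarboxylase, averaged 37.1 ± 8.26 CPM, and *Idi1*, isopentenyl diphosphate isomerase, averaged 5.26 ± 1.04 CPM.

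In the sterol part the median coefficient of variation was 13.3% over 11 enzymes, and even and uneven genes stood side by side. *Lss*, lanosterol synthase, was at 59.0, 69.4, 91.0, 47.1 and 71.1 CPM, highest in replicate 3 and lowest in replicate 4 (coefficient of variation 24.1%). *Sqle*, squalene epoxidase, a control step of the sterol part, was at 57.5, 75.2, 90.1, 66.1 and 64.2 CPM. Its lowest liver was replicate 1 and not replicate 4, and the coefficient of variation was 17.8%. *Dhcr7*, a reductase of the last steps, averaged 138 ± 23.9 CPM, and *Nsdhl*, a sterol dehydrogenase, 115 ± 16.6 CPM (SD, n = 5 each). *Sc5d*, a sterol desaturase, had the highest level of the enzymes in CPM, at 669 ± 91.2.

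*Msmo1*, the methylsterol monooxygenase, did not follow the other enzymes. It was at 209, 209, 224, 235 and 233 CPM, so that replicate 4, the lowest liver for most enzymes, was its highest. *Ebp*, a sterol isomerase, was at 235, 234, 203, 210 and 228 CPM, with its lowest level in replicate 3, the highest liver for most enzymes. Both varied little, with coefficients of variation of 5.74% and 6.66%, and *Tm7sf2*, a sterol reductase, varied least of the enzymes, at 157 ± 7.41 CPM (4.71%). *Fdft1*, squalene synthase, averaged 113 ± 12.3 CPM, *Cyp51*, lanosterol demethylase, 183 ± 23.7 CPM, and *Hsd17b7*, a ketosterol reductase, 95.9 ± 12.8 CPM (SD, n = 5 each).

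The enzymes thus tended to be highest and lowest in the same livers. AAV8-Control replicate 3 was the highest liver for 15 of 18 enzymes, where it was the highest for 15.8% of the 11041 genes. The other 3 were *Mvk*, *Msmo1* and *Ebp*. Replicate 4 was the lowest liver for 12 of 18 enzymes, against 31.7% of the 11041 genes, and for 11 enzymes both held. Replicate 1 was the lowest for *Sqle*, *Cyp51*, *Msmo1* and *Nsdhl*. These shares of all genes depended on the scaling. With DESeq2 size factors replicate 3 was the highest liver for 15 enzymes and 19.4% of the 11041 genes, and replicate 4 the lowest for 10 enzymes and 24.1%. These livers were singled out after their values were seen, and the enzymes of a liver share its library, so the counts are a description.

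**Figure D2:**
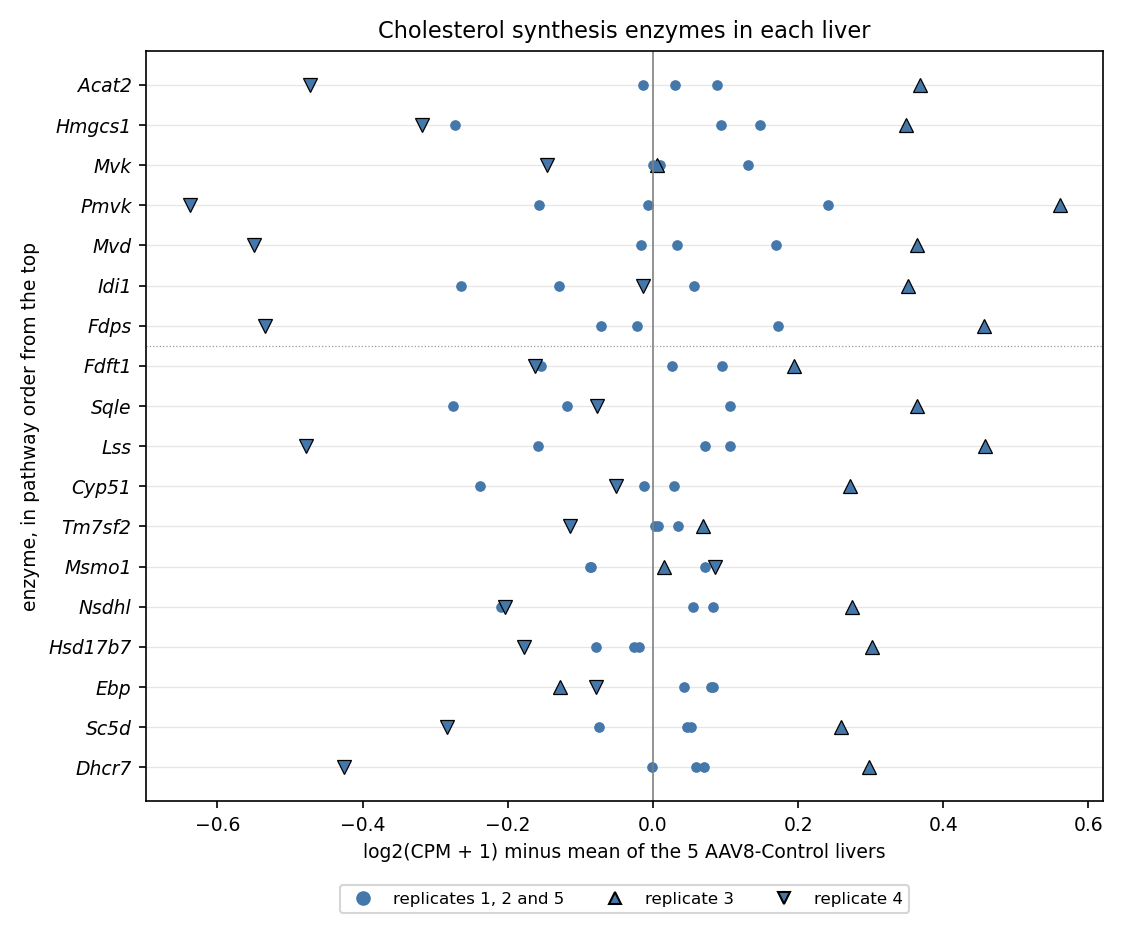
Level of the 18 cholesterol synthesis enzymes in each AAV8-Control liver as log2(CPM + 1) minus the mean of the 5 livers, with 1 point per liver. Replicate 3 (upward triangles) is the rightmost point for 15 enzymes and replicate 4 (downward triangles) the leftmost for 12.

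Averaged over the 18 enzymes and set against the mean of the livers, the level on the log2 scale was -0.083, 0.061, 0.27, -0.26 and 0.011 in replicates 1 to 5, with an SD of 0.19. The span was wider in the mevalonate part, from -0.38 to 0.35, than in the sterol part, from -0.18 to 0.22. Replicates 3 and 4 held the ends in each case.

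Fatty acid synthesis, the lipid pathway served by the related factor SREBP-1c, had the same livers at its ends and a wider spread. Over a list of 16 genes the level relative to the mean of the livers was 0.073, 0.20, 0.60, -0.89 and 0.017 on the log2 scale in replicates 1 to 5. Replicate 4 was the lowest liver for 16 of 16 genes, and replicate 3 the highest for 14 of 16. *Fasn*, fatty acid synthase, was at 1891, 1911, 2782, 715 and 1639 CPM. *Scd1*, the stearoyl-CoA desaturase, was at 21694, 22999, 34754, 5535 and 17622 CPM. The median coefficient of variation of the 16 genes was 34.7%, against 15.9% for the 18 cholesterol enzymes. Part of the first value came from replicate 4, and leaving that liver out was not tried for the fatty acid list. The difference between the pathways was not tested.

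**Figure D3:**
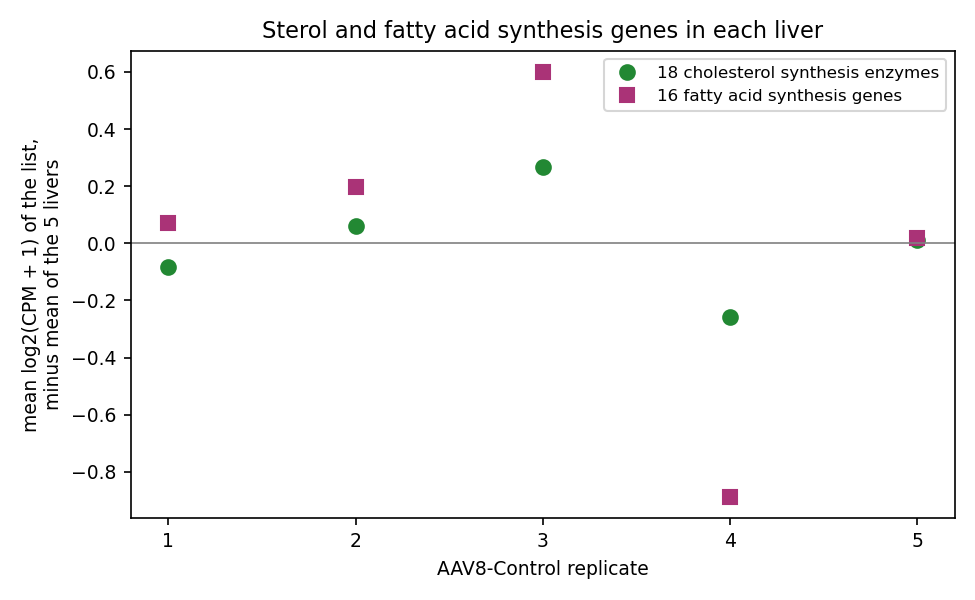
Mean log2(CPM + 1) of 18 cholesterol synthesis enzymes (circles) and 16 fatty acid synthesis genes (squares) in each AAV8-Control liver, minus the mean of the 5 livers. Circles run from -0.26 to 0.27 and squares from -0.89 to 0.60, and replicate 4 is the lowest and replicate 3 the highest liver for both.

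Among the regulators of SREBP-2, *Insig1*, which is itself a target of the factor, was at 305, 281, 347, 242 and 293 CPM in replicates 1 to 5. Like most enzymes it was highest in replicate 3 and lowest in replicate 4. *Insig2*, which encodes another protein of the endoplasmic reticulum that retains SCAP, occupies bases 121304353 to 121332589 of chromosome 1 in GRCm38, reverse strand. It was at 407, 541, 499, 419 and 448 CPM, with replicates 1 and 4 the lowest and close together. *Srebf2*, which encodes SREBP-2, was at 71.2, 64.8, 61.5, 60.7 and 65.4 CPM. It did not follow the enzymes, as replicates 3 and 4 were its 2 lowest livers and differed by less than 1 CPM. *Scap*, the escort protein, was at 131 CPM in replicate 1 and between 97.9 and 104 CPM in the other livers.

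The genes of uptake and transport differed from each other in spread. *Scarb1* encodes SR-BI, the HDL receptor that takes up cholesteryl ester, and occupies bases 125277087 to 125341094 of chromosome 5 in GRCm38, reverse strand. It was at 175, 158, 144, 178 and 148 CPM, so that replicate 3 was its lowest liver and replicate 4 its highest, the reverse of most enzymes. *Mylip*, a ubiquitin ligase that sends lipoprotein receptors to degradation, was at 11.9, 12.4, 11.3, 6.82 and 8.36 CPM. Replicates 4 and 5 lay below the other livers, and the coefficient of variation was 24.1%. *Stard4*, a carrier of sterol between membranes, was at 94.4, 101, 101, 102 and 92.9 CPM, the most even of the 30 genes at 4.27%.

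The esterification genes had different livers at their ends. *Soat2* encodes the sterol acyltransferase that makes cholesteryl ester in hepatocytes, an enzyme also known as ACAT2 and unrelated to the thiolase gene *Acat2*. It was at 24.5, 27.2, 31.2, 19.7 and 22.5 CPM, highest in replicate 3 and lowest in replicate 4. *Lcat*, which the liver secretes to esterify cholesterol on HDL, was at 585, 517, 504, 560 and 550 CPM, with replicate 3 its lowest liver and a coefficient of variation of 6.00%.

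Of the efflux transporters, *Abca1* was at 131, 124, 143, 114 and 115 CPM, highest in replicate 3 and lowest in replicates 4 and 5, of which replicate 5 was the lower after DESeq2 or TMM scaling. *Abcg8* was at 66.5, 74.3, 76.8, 91.0 and 85.5 CPM, and *Abcg5*, its partner, at 66.5, 70.3, 78.5, 85.0 and 77.0 CPM. The genes are read in opposite directions on chromosome 17, and the nearest of their RefSeq starts lie 110 bases apart. The other listed start of *Abcg8* lies 6709 bases inside the *Abcg5* locus, and the exons of the pair overlap over 3.02% of *Abcg5* and 2.19% of *Abcg8*. Both were highest in replicate 4 and lowest in replicate 1.

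Genes around the pathway were taken from lists that hold none of the 30. The median coefficient of variation was 6.78% for 9 genes of the isoprenoid branches that share farnesyl diphosphate. It was 7.53% for 11 genes that process SREBP or degrade sterol-regulated proteins and 8.24% for 16 genes that move or store sterol within the cell. For 9 partners of lipoprotein uptake it was 13.7%, and for 8 genes of LXR and its targets 12.1%. The mean level of this LXR list had an SD over livers of 0.21 on the log2 scale, against 0.19 for the synthesis enzymes, and ran from -0.35 in replicate 4 to 0.17 in replicate 1. The lowest of the other livers was replicate 5 at -0.043, so much of that SD came from replicate 4. Its value without that liver was not computed. Within it *Pltp*, the phospholipid transfer protein of plasma, named after its values were seen, was at 53.5, 72.5, 87.4, 21.8 and 56.1 CPM, with the ends in the livers that were extreme for the enzymes. *Lpcat3* and *Abcg1* had the same ends. The rest of the list, *Nr1h2*, *Nr1h3*, *Rxra*, *Rxrb* and *Srebf1*, was instead highest in replicate 1. *Srebf1* was at 479 CPM there and 442 CPM in replicate 3.

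Markers of cell types also differed between these livers. The summed level of 10 hepatocyte markers was 128235 CPM in replicate 3 and 141915 CPM in replicate 4, in a range from 105225 to 141915 CPM, and most of it was *Alb* (105043 and 111611 CPM). As a mean of log2(CPM + 1) relative to the mean of the livers, the hepatocyte list was lowest in replicate 3 (-0.14) and highest in replicate 4 (0.18), the reverse of the synthesis enzymes. Within that list *Apoa1* (1278 CPM in replicate 3 and 769 CPM in replicate 4) and, slightly, *Hnf4a* (608 and 603 CPM) went the other way. The sum of 14 Kupffer cell and macrophage markers was 397 CPM in replicate 3 and 272 CPM in replicate 4 (0.22 and -0.18 on that log2 scale), in a range from 219.6 to 452 CPM. For 10 markers of sinusoidal endothelium it was 408 and 311 CPM, replicate 4 being the lowest liver (0.22 and -0.51), although *Dpp4*, at 142 and 157 CPM, went the other way. The stellate cell and fibroblast sum was 371 and 352 CPM, in a range from 352 to 464 CPM, but on the log2 scale replicate 3 was the lowest liver (-0.19 and -0.16). The cholangiocyte sum, over 7 markers, was 46.6 CPM in replicate 3, the lowest liver, and 63.9 CPM in replicate 4. The sum of 5 red blood cell markers was 269 and 282 CPM. All 10 lymphocyte markers averaged below 1 CPM. Over 15 clock genes the level relative to the mean of the livers ran from -0.15 to 0.15 on the log2 scale, with 0.092 in replicate 3 and -0.0023 in replicate 4. The part of these in the levels of the cholesterol genes was not tested.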

How the data were processed

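RNA was sequenced from *db/db* livers, of which the 5 of AAV8-Control are described. According to the submitters' processing notes and the paper's methods, the authors used poly-A selection, random hexamers and single reads of 50 bases, aligned them with STAR 2.0.4b to GRCm38.p2 (Ensembl release 76) and counted unique reads on genes with featureCounts 1.4.5. Whether the counting used strand is not given in the sources used here, so reads of overlapping genes are uncertain. The authors deposited CPM, by a step that their text does not describe. Dividing by the CPM of 1 read gave whole reads for 100% of values (tolerance 0.01).

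The table held 15236 lines for 15126 genes, and 110 repeated lines were dropped. Groups followed the sample labels, and separate animals are not stated for each library, so the spread is that between these samples. All-gene values cover the 11041 genes averaging 1 CPM or more in these livers, and list levels are means of log2(CPM + 1). No p-value is given. Promoters came from RefSeq, and loci, exon lengths and shared windows from GENCODE M21, also GRCm38.

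The members and lists were chosen with earlier results of these data known. A rule set for naming genes by a test was not used. Values per liver are given for *Srebf2*, *Insig1*, *Sqle*, *Abca1*, *Scarb1* and *Soat2* and for others chosen after their values were seen. Alternatives were DESeq2 1.42.0 size factors and TMM (edgeR 4.0.16, R 4.3.3) on the reads, a pseudocount of 0.1, no filter, at least 10 reads in every library, and each liver left out. No 2 libraries were near-identical (lowest chi-square per degree of freedom 15.9). The other libraries of the table, comparisons with them and some genes of the pathway are not reported here.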

Additional observations from a re-analysis of the deposited data

Results flagged for a closer look

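For *Scap*, AAV8-Control replicate 1 stood at 131 CPM, far from the other 4 livers at 97.9 to 104 CPM. Its gap to the nearest liver was 0.828 of the whole range, where more than 0.71 counts as far (Dixon's 95% criterion for 5 samples). This held for 1 of the 30 genes and for 5.78% of the 11041 genes, and chance gives about 1 in 20, so it does not set the 30 genes apart.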

How the results depend on the processing

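Replicate 3 was the highest liver for 15 of the 18 synthesis enzymes with DESeq2 size factors and with TMM scaling. Replicate 4 was the lowest for 10 instead of 12 with either scaling. Replicate 1 was instead the lowest for *Hmgcs1* and *Fdft1*. Replicate 1 was the highest liver for 37.8% of the 11041 genes in CPM, 23.4% with DESeq2 size factors and 22.9% with TMM. With either scaling the highest liver of *Ebp* and *Lcat* and the lowest of *Srebf2*, *Scap*, *Stard4* and *Abca1* also changed. Leaving out another liver cannot lower these counts and so does not bear on them. The SD of the enzymes' mean level, 0.19, was 0.14 to 0.22 with each liver left out and 0.20 with either scaling or a pseudocount of 0.1. For the 30 mean levels, either scaling changed a mean by at most 0.26% and leaving out 1 liver by at most 10.7%. The median coefficient of variation over all genes, 10.6%, was 14.2% with no filter and 10.9% with at least 10 reads in every library.

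Counting error alone, from the reads behind each value, came to 62.7% of the coefficient of variation for *Mvk*, 48.9% for *Stard4* and 46.8% for *Idi1*, and to no more than 48.9% for any gene of the 30 but *Mvk*. The number of livers also limits the description. No paired analysis was possible because the livers of a single group are described. For the same reason the planned fits without moderation, with edgeR and with DESeq2 were not run.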
